A study of Rattus norvegicus with 8 samples.

Results

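Xpo7, Tmcc2 and 7 further genes of late erythroid cells (Trim10, Trim58, Hemgn, Tspan33, Mkrn1, Fbxo7 and Car2) were followed in whole blood of rats. The genes were chosen by deposited values of these same arrays: the widest probe sets of Xpo7 and Tmcc2 ranked 2 and 4 of 31042 in spread between arrays, and the others are known genes of the same stage of red cell development. Every probe set that the platform annotation assigned to exactly 1 of these symbols was kept, which gave 15 probe sets for 7 of the 9 genes, out of 31042 probe sets and 14217 named genes. Xpo7 had 3 probe sets, Tspan33 had 3, Mkrn1 had 4, Car2 had 2, and Tmcc2, Hemgn and Fbxo7 had 1 each. Trim10 and Trim58 had none under these names or gene numbers and were not analysed here.

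The mulberry group held 4 arrays of blood from male Wistar rats that ate a high-fat diet (Quick fat) with 1% mulberry leaf powder, and the high-fat group held 4 arrays from male Wistar rats on that high-fat diet alone, so both groups carried the high-fat diet. The comparison asks whether the leaf powder went with other transcript levels in blood. The rats were 7 weeks old at purchase, had 1 diet for 8 weeks after acclimation, and gave blood on day 56 following a night without food. Each group had 10 rats, and the labels call its arrays biological replicates without saying whether an array is 1 rat or a pool, so the spread between arrays may be partly technical. The normal-diet group of the design was not analysed here.

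Red cells form in the bone marrow from nucleated erythroblasts that stop dividing, condense their chromatin, expel the nucleus and enter the blood as reticulocytes. Reticulocytes make no new transcripts but still hold messenger RNA, which they clear together with mitochondria and other organelles, and they are the main source of erythroid transcripts in whole blood. In mice, Xpo7, a nuclear transport receptor of the karyopherin family, is needed for the nuclear maturation that precedes enucleation, Fbxo7 and Trim58 act in ubiquitin-dependent steps of late maturation, and Hemgn is a nuclear protein and a direct target of the erythroid transcription factor GATA1.

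Promoters of 4 members are printed here: those of Tmcc2, Hemgn and Fbxo7, whose probe sets were all highest on high-fat replicate 1, and that of Mkrn1, of which no probe set was. Without that array Tmcc2 stood closer to Mkrn1 1373496_at and 1376626_at than to any Xpo7 probe set, as given further on. They are the bases before the annotated start in RefSeq's rat assembly GRCr8, 250 for each gene, written 5′ to 3′ on the gene's strand. RefSeq promoter entries were matched for 7 of the 9 genes by symbol (8 entries, since Hemgn has 2 starts), with none matched for Xpo7 and Car2. Capitals mark the GATA boxes AGATAA and GATAAG, which can overlap, and the CACCC-type boxes CCACACCC and CCNCNCCC, on either strand.
Tmcc2, chr13:46383863-46384112, minus strand: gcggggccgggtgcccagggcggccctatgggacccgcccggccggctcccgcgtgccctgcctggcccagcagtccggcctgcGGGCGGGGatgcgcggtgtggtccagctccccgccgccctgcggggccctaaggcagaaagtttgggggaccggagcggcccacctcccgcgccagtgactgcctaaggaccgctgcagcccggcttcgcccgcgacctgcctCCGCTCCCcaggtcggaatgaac
Hemgn, chr5:65485822-65486071, minus strand: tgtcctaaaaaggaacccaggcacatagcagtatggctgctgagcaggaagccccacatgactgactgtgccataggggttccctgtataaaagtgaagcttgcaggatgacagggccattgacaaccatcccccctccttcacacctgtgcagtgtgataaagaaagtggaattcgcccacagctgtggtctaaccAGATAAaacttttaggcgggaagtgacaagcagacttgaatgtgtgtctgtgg
Fbxo7, chr7:19725181-19725430, minus strand: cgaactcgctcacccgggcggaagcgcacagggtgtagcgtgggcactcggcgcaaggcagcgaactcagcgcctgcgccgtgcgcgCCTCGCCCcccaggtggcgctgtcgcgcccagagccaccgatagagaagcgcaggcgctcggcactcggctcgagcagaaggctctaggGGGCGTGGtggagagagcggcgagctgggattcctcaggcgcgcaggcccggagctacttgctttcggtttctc
Mkrn1, chr4:69163986-69164235, minus strand: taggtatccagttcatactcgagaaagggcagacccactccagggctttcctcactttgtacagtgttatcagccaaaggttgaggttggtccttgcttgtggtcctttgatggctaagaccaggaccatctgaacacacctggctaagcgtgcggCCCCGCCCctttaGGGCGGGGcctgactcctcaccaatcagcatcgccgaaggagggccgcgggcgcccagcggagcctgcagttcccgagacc
Of these 4, the Hemgn promoter holds an AGATAA, on the gene's strand with its first base 53 bases before the start. Over the full window of 300 bases, reaching 50 past the start, AGATAA was found in 3 of the 8 member entries (Trim10, Trim58 and 1 start of Hemgn), against 11.6% of all 33469 promoters. GATAAG was in 1 of 8 (Trim10), against 7.05% of all promoters. CCNCNCCC was in 6 of 8, against 46.3%, and CCACACCC in 0 of 8, against 3.22%. The E-box core CANNTG, not marked above, was in 6 of 8 against 72.1%. The Mkrn1 promoter carries CCNCNCCC at 2 places, as do those of Tmcc2 and Fbxo7. A match describes letters only, and no binding was measured.

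The deposited values are on a log2-like scale from 5.17 to 15.26, but their spread between arrays is compressed: the median SD of a probe set over the 8 arrays was 5.31e-06. How much it is compressed is unknown and need not be equal for every probe set, so no difference is given as a fold change. Instead, a value's distance from its probe set's mean over 8 arrays is given in SD units, where 1 unit is that probe set's own SD over the 8 arrays. Of all 31042 probe sets, 191 had an SD of 0.001 or more, among them 1 of Tmcc2, 1 of Car2 and 2 of Xpo7. In bulk blood, fewer cells of a type and less RNA per cell cannot be told apart.

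One array stood apart in these genes. High-fat replicate 1 had the highest value of the 8 arrays in 7 of the 15 member probe sets, from 5 of the 7 genes: all 3 of Xpo7, those of Tmcc2, Hemgn and Fbxo7, and 1 of the 2 of Car2. Over all probe sets it was the highest array in 10.4%, and over the probe sets with an SD of 0.001 or more in 12.0%. The exceptions were Tspan33, Mkrn1 and the other Car2 probe set, in which a different array was highest. Because members were chosen with these values known, their count is a description and was not tested. High-fat replicate 1 also had the lowest hybridization control level (-1.44 SD units over 18 control probe sets) and the lowest polyA control level (-1.31 over 24). Over the other 7 arrays these levels ran from -1.07 to 1.30 and from -1.23 to 1.23. Their part in the member values was not tested.

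Xpo7, the karyopherin, showed this most. Its widest probe set, 1371516_at, read 8.290, 8.260, 8.302 and 8.315 in mulberry replicates 1 to 4, against 8.727, 8.310, 8.311 and 8.312 in high-fat replicates 1 to 4 (log2 values as deposited). High-fat replicate 1 alone was high, at 0.426 above the mean of the other 7, and the remaining high-fat arrays lay within the range of the mulberry arrays. Leaving that array out removed 98.59% of the probe set's sum of squares about its mean, and the SD was then 0.0195, against 0.152 over all 8. The second probe set, 1397312_at, read 7.2543, 7.2572, 7.2557 and 7.2556 in the mulberry arrays, against 7.2786, 7.2555, 7.2578 and 7.2568 in the high-fat arrays. Again only high-fat replicate 1 was high, and the other arrays of both diets overlapped.

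The third Xpo7 probe set, 1397747_at, was also highest on high-fat replicate 1, at 1.89 SD units. It read -0.55, -0.46, -0.27 and 0.27 SD units in the mulberry arrays, against 1.89, -0.42, 0.89 and -1.35 in the high-fat arrays. High-fat replicate 3 came next and high-fat replicate 4 was lowest, so the groups overlapped. The deposited SD of this probe set was 5.03e-05, which the widest Xpo7 probe set exceeded by 3020 times, so probe sets of 1 gene differed greatly in spread. Between the Xpo7 probe sets, r over the 8 arrays was 0.98 for the wider pair, and 0.77 and 0.78 for the third probe set with 1371516_at and 1397312_at. Without high-fat replicate 1 these were -0.11, 0.20 and 0.27.

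Tmcc2 encodes a coiled-coil membrane protein of the endoplasmic reticulum. Its probe set, 1374160_at, read 10.884, 10.870, 10.877 and 10.881 in the mulberry arrays, against 11.022, 10.879, 10.879 and 10.859 in the high-fat arrays. High-fat replicate 1 was high by 0.147 over the mean of the other 7, and high-fat replicate 4 was the lowest array, below all 4 mulberry arrays. Leaving high-fat replicate 1 out removed 97.74% of the sum of squares.

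**Figure D1:**
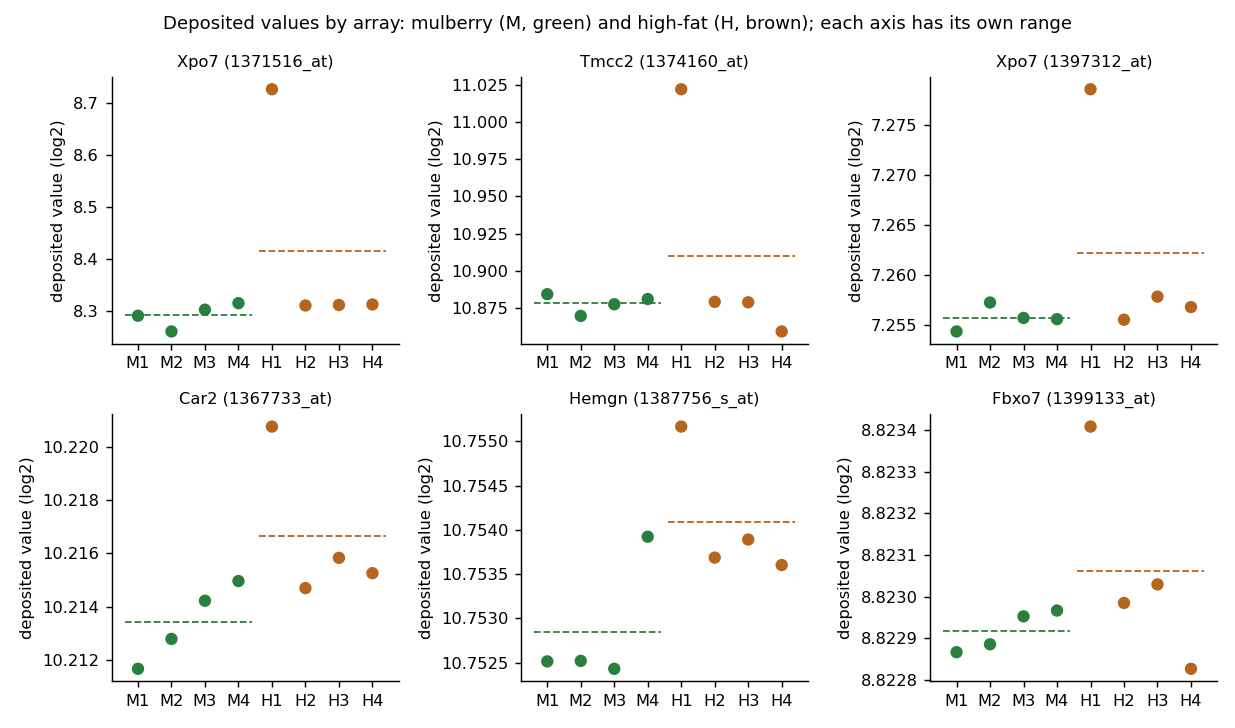
Deposited log2 values (vertical axes, each with its own range) of 6 member probe sets on the 4 mulberry arrays (M1 to M4, green) and the 4 high-fat arrays (H1 to H4, brown), with dashed lines at the group means. The panels are the 6 of widest spread among the member probe sets highest on high-fat replicate 1, so that array is highest in each by choice. It is at 8.727 for the widest Xpo7 probe set and 11.022 for Tmcc2, and the other 7 arrays of both diets overlap.

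Hemgn, the GATA1 target, was measured by 1 probe set of a kind that may match several transcripts, 1387756_s_at. It read 10.75251, 10.75252, 10.75243 and 10.75392 in the mulberry arrays, against 10.75517, 10.75369, 10.75389 and 10.75360 in the high-fat arrays. Mulberry replicates 1, 2 and 3 lay below every high-fat array, while mulberry replicate 4 lay above high-fat replicates 2, 3 and 4. The highest array was high-fat replicate 1, and leaving it out removed 53.08% of the sum of squares.

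Car2 encodes a cytosolic carbonic anhydrase that red cells use in carbon dioxide transport. Its wider probe set, 1367733_at, read 10.2117, 10.2128, 10.2142 and 10.2150 in the mulberry arrays, against 10.2207, 10.2147, 10.2158 and 10.2153 in the high-fat arrays. Its highest array was high-fat replicate 1 (74.3% of the sum of squares went with it), and mulberry replicate 4 reached above high-fat replicate 2, so the groups overlapped at 1 array. The narrower probe set, 1386922_at, stood at -2.10, -0.49, -0.22 and 0.37 SD units in the mulberry arrays, against 0.57, 0.01, 1.18 and 0.68 in the high-fat arrays. Here high-fat replicate 3 was highest and mulberry replicate 1 far the lowest, and once more mulberry replicate 4 was the one that overlapped. The r between both Car2 probe sets was 0.67 over 8 arrays and 0.96 without high-fat replicate 1.

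Fbxo7 encodes the substrate receptor of a ubiquitin ligase, linked in people to an early form of parkinsonism. Its probe set, 1399133_at, read 8.82287, 8.82289, 8.82295 and 8.82297 in the mulberry arrays, against 8.82341, 8.82298, 8.82303 and 8.82283 in the high-fat arrays. Again high-fat replicate 1 was highest, with 86.42% of the sum of squares gone when it was left out, and high-fat replicate 4 was the lowest of all.

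Tspan33, a tetraspanin needed for normal red cell formation in mice, had no probe set that was high on high-fat replicate 1. Probe set 1372980_at stood at 0.85, -0.46, 1.26 and 0.82 SD units in the mulberry arrays, against -0.71, -1.002, 0.62 and -1.38 in the high-fat arrays. Probe set 1396099_at stood at 2.01, -0.58, 0.66 and 0.15 in the mulberry arrays, against -1.11, -0.14, -0.02 and -0.97 in the high-fat arrays, and high-fat replicate 1 was its lowest array. In both, 3 mulberry arrays were high and mulberry replicate 2 lay among the high-fat arrays. Probe set 1395610_at was set apart by mulberry replicate 1, at 2.24 SD units, while its other 7 arrays ran from -1.09 to 0.39.

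Mkrn1, an E3 ubiquitin ligase that binds RNA, had 4 probe sets, and in 3 of them high-fat replicate 4 was lowest. On that array 1376626_at stood at -1.80 SD units, 1373496_at at -1.93 and 1379325_at at -2.08, and the other 7 arrays ran from -1.08 to 1.67 over these 3 probe sets. The fourth, 1373070_at, was set apart by mulberry replicate 4, at 2.13 SD units. High-fat replicate 1 lay between -0.25 and 0.54 in all 4. High-fat replicate 4 was the lowest array in 8 of the 15 member probe sets, and in 16.7% of all probe sets.

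**Figure D2:**
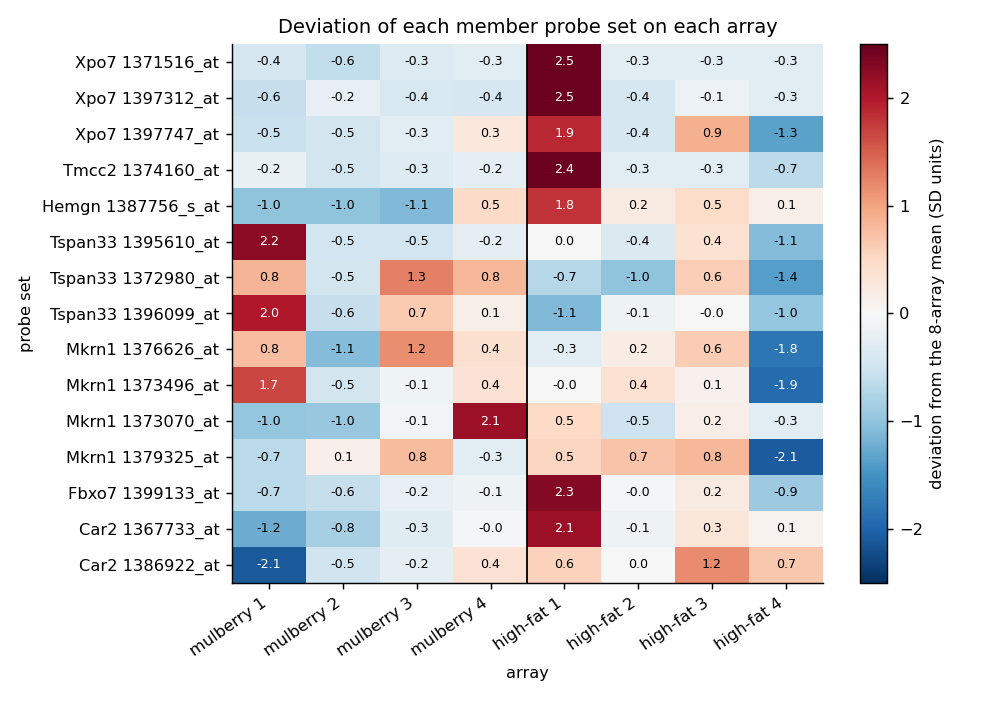
Deviation from the 8-array mean in SD units (colour and printed value) for the 15 member probe sets (rows) on the mulberry arrays (left of the line) and the high-fat arrays (right of it). High-fat replicate 1 is dark red for Xpo7, Tmcc2, Hemgn, Fbxo7 and 1 Car2 probe set, from 1.8 to 2.5 SD units, and near or below 0.5 for Tspan33 and Mkrn1, where the deep blue cells fall mostly on high-fat replicate 4.

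How far the other members follow Xpo7 and Tmcc2 was read from Pearson's r over the 8 arrays to the mean of the standardised values of their widest probe sets, called the Xpo7-Tmcc2 profile. Over the 8 arrays Xpo7 and Tmcc2 had r 0.98 with each other and a Spearman rho of 0.36. Without high-fat replicate 1 the r was 0.11, and with mulberry replicate 2 also left out, as the array next farthest from the median of the profile, it was -0.42. Their joint pattern therefore rested on high-fat replicate 1, and no p is given. Where that array was left out, alone or with mulberry replicate 2, the profile was formed anew from the remaining arrays. It then held no joint pattern of both genes. The arrays share their processing, and 8 values with 1 far point make r a description of that point.

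Of the 11 probe sets of the other 5 genes, 3 reached an r of 0.7 to the profile, against 2.16% of all other probe sets. These were Fbxo7 (r 0.95, rho 0.81), Car2 1367733_at (r 0.87, rho 0.62) and Hemgn (r 0.75, rho 0.81). Fbxo7 alone passed 0.9. The other Car2 probe set had r 0.23, those of Tspan33 ran from -0.40 to 0.05, and those of Mkrn1 from -0.02 to 0.26. With quantile normalization Tspan33 1395610_at had r -0.95 and 1372980_at r -0.997, while Hemgn, Tspan33 1396099_at and all 4 Mkrn1 probe sets took 1 value on every array and gave no r. The remaining Xpo7 probe sets had r 0.98 (1397312_at) and 0.80 (1397747_at).

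Without high-fat replicate 1, the profile was the mean of 2 genes with an r of 0.11 to each other, so following it is no longer following both. Then 1 of the 11 probe sets reached 0.7, Mkrn1 1376626_at at 0.77, against 2.75% of all other probe sets. This probe set had r 0.90 with Tmcc2 and 0.24 with the widest Xpo7 probe set. Fbxo7 had 0.66, Hemgn 0.46 and Car2 1367733_at 0.32. The second Xpo7 probe set turned to -0.44. Without high-fat replicate 1 and mulberry replicate 2, Fbxo7 alone reached 0.7 (r 0.85), to a profile of genes whose r with each other was -0.42.

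**Figure D3:**
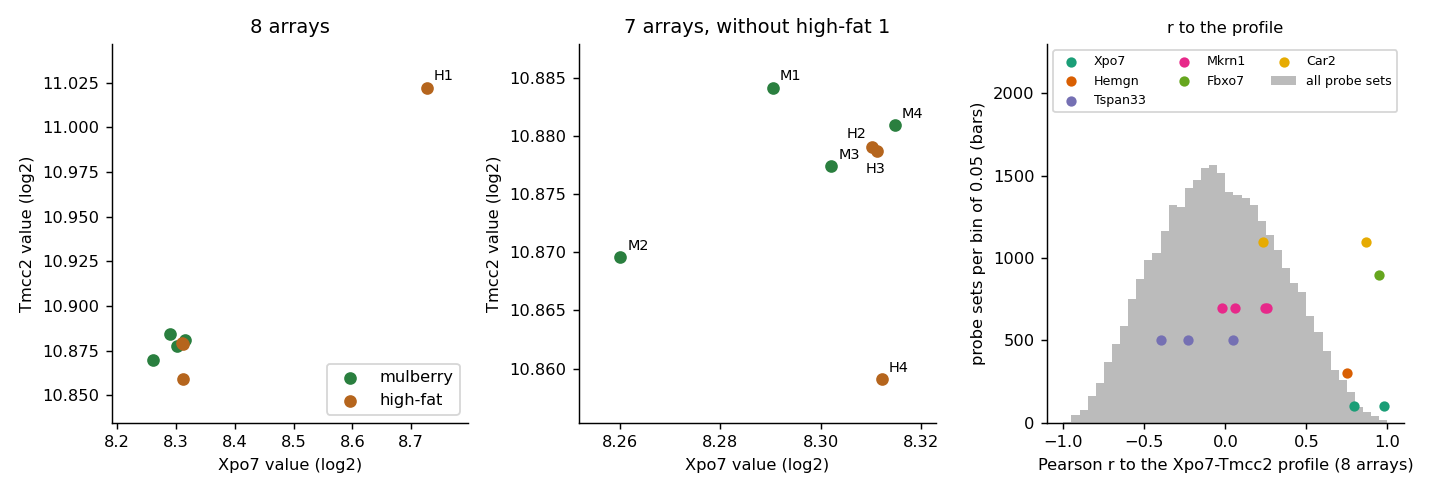
Left and middle, deposited log2 values of Xpo7 1371516_at (horizontal) against Tmcc2 1374160_at (vertical) on the mulberry arrays (M, green) and the high-fat arrays (H, brown), with all 8 arrays and without high-fat replicate 1. The r of 0.98 on the left becomes 0.11 in the middle. Right, the r of each remaining member probe set to the Xpo7-Tmcc2 profile (points, at heights set only to separate the genes) over the distribution of r for all probe sets (grey bars, number per bin), where the Fbxo7, Xpo7, Hemgn and 1 Car2 point lie in the right tail.

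Pairs of members changed with high-fat replicate 1. Of the 92 pairs between different genes, 22 (23.9%) had an r of 0.7 or more over 8 arrays, against 3.67% of all pairs of probe sets and 28.2% of pairs among the 191 with an SD of 0.001 or more. Without high-fat replicate 1 it was 16 (17.4%), against 5.24% and 29.6%, and 8 pairs were in both counts. Xpo7 and Tmcc2 were chosen for values that are high on 1 array and so pair over the 8 by that choice, and pairs share probe sets, so these counts are descriptions. Hemgn and Car2 1367733_at had r 0.91 over 8 arrays and 0.82 over 7. The widest Xpo7 probe set had 0.74 with each of them over 7 arrays, where mulberry replicates 1 and 2 were low for all 3. Xpo7 1397747_at and Fbxo7 had r 0.92 over 8 arrays and 0.87 over 7. Over the 7 these did not join Hemgn (r 0.34 and 0.45) or Car2 1367733_at (0.33 and 0.52), and their r with Mkrn1 1379325_at was 0.70 and 0.84.

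Tmcc2 stood near probe sets of Mkrn1 and Tspan33 on those 7 arrays. Its r with Mkrn1 1373496_at was 0.14 over 8 arrays and 0.95 over 7, and with Mkrn1 1376626_at 0.03 and 0.90. With Tspan33 1396099_at it was -0.34 over 8 arrays and 0.77 over 7. Tspan33 and Mkrn1 had r 0.85 (1395610_at with 1373496_at) and 0.84 (1372980_at with 1376626_at) over those 7 arrays. High-fat replicate 4 was the lowest array in all of these but Tspan33 1396099_at, whose lowest of the 7 it also was. These pairs were picked after their values were seen. The remaining Mkrn1 probe sets had lower r with Tmcc2 over the 7 arrays, 0.61 (1379325_at) and 0.23 (1373070_at). For Xpo7 it was 0.63 (1397747_at), 0.11 (1371516_at) and -0.54 (1397312_at).

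Between the diets no member passed the test. limma's moderated test on all 31042 probe sets called 0 of the 15 member probe sets at a Benjamini-Hochberg adjusted p under 0.05, with adjusted p = 1.0 for each, against 0.0% of all probe sets called (lowest adjusted p = 0.569). At an unadjusted p under 0.05, 1 member probe set, that of Hemgn, was lower with mulberry, against 1.61% of all probe sets lower and 2.74% higher. No member probe set separated the diets without overlap. Of all probe sets, 0.915% did so with every mulberry array lower, and 1.6% with every mulberry array higher.

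The members split by gene in the direction of their means. In 9 of the 15 the mulberry mean was the lower (all 3 of Xpo7, both of Car2, those of Tmcc2, Hemgn and Fbxo7, and 1 of Mkrn1), against 47.3% of all probe sets, and in 6 (all 3 of Tspan33 and 3 of Mkrn1) it was the higher. The split moved with the scaling: after median centring 7 were lower and 8 higher, and with quantile normalization 7 were lower, 2 higher and 6 had a difference of 0. The median difference of the 15, mulberry minus high-fat, was -0.50 SD units, against 0.06 over all probe sets. Where several probe sets share a gene they are no separate evidence.

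In the deposited values Hemgn differed most among them, by -1.32 ± 0.54 SD units (SE of the limma fit, 4 arrays each). Without high-fat replicate 1 it differed by -1.26. Its unadjusted p = 0.0376 came from limma's moderated test, while the SEs given here use each probe set's own residual variance. With quantile normalization the difference of Hemgn was 0, and after median centring (-1.30) Tspan33 1396099_at (1.44) and 1372980_at (1.39) differed more. Car2 1367733_at differed by -1.20 ± 0.59, and by -1.26 without high-fat replicate 1. Car2 1386922_at differed by -1.22 ± 0.58, and by -1.17 without it, but by -0.27 after median centring and -0.48 with quantile normalization. The widest Xpo7 probe set averaged 8.292 ± 0.023 in the mulberry arrays and 8.415 ± 0.208 in the high-fat arrays (SD, n = 4 each), a difference of -0.81 ± 0.69 SD units. It was -0.99 without high-fat replicate 1, in SD units of the 7 arrays, as for all values without that array. For this probe set that unit was 0.0195, against 0.152 over 8 arrays, so the difference in deposited values shrank. Tmcc2 averaged 10.878 ± 0.006 in the mulberry arrays and 10.910 ± 0.075 in the high-fat arrays (SD, n = 4 each). Its difference of -0.61 ± 0.72 SD units turned to 0.67 ± 0.78 without high-fat replicate 1. Fbxo7 differed by -0.79 ± 0.69, and by -0.40 without that array.

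Tspan33 had differences of 1.24 ± 0.57 (1372980_at), 1.12 ± 0.61 (1396099_at) and 0.53 ± 0.73 (1395610_at). The third of these turned to -0.29 without mulberry replicate 1, and was 0.89 after median centring and 0.86 with quantile normalization. Quantile normalization gave 0.71 for 1372980_at and 0 for 1396099_at. Mkrn1 had differences of 0.73, 0.62, 0.08 and -0.01, each smaller than its SE except that of 1373496_at (0.73 ± 0.70). After median centring all 4 were higher with mulberry, from 0.91 to 1.21, and with quantile normalization all 4 were 0. None of these passed the test over all probe sets.

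**Figure D4:**
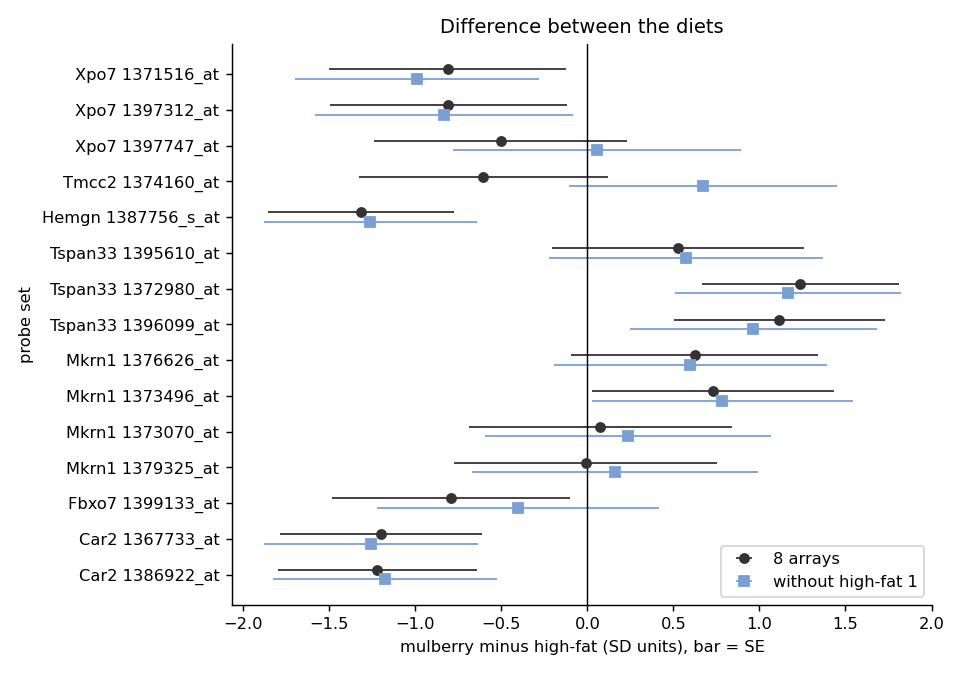
Difference between the diets, mulberry minus high-fat, in SD units (horizontal axis) for each member probe set (rows), with bars of 1 SE from the limma fit, over 8 arrays (circles) and without high-fat replicate 1 (squares). Circles are in SD units of the 8 arrays and squares in SD units of the remaining 7, so their distances from 0 do not compare in size. Hemgn and Car2 lie below 0 in both, Tspan33 lies above 0 in both, and Tmcc2 moves from -0.61 to 0.67 when that array is left out.

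Other genes of the pathway were read from 4 lists, with 1 probe set per gene, the one of highest mean. Of the 71 further late erythroid genes listed, 61 were measured. limma called none between the diets (2 at an unadjusted p under 0.05), 29 had a lower and 32 a higher mulberry mean, against 50.9% of all 14217 genes lower, and their median difference was 0.08 SD units, against -0.02 over all genes. In 20 of the 61 (32.8%) the highest array was high-fat replicate 1, against 10.5% of all genes. With the same choice of probe set it was the highest in 4 of the 7 members, since the Car2 probe set of highest mean is the narrower one. In 13 of the 61 (21.3%) the r to the profile was 0.7 or more, against 2.26% of all genes. Without high-fat replicate 1 it was 10 of 61 (16.4%) against 2.92%, and 3 genes were in both counts (Foxo3, Ube2h and Kel). The profile was then formed anew without that array and held no joint pattern of Xpo7 and Tmcc2.

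Genes of several red cell functions were among those 13. Kel, a blood group protein of the red cell surface, read 9.635, 9.630, 9.634 and 9.636 in the mulberry arrays, against 9.659, 9.633, 9.638 and 9.635 in the high-fat arrays (r 0.98, and 0.71 without high-fat replicate 1). Gypc, a glycophorin that anchors the membrane skeleton, read 6.910, 6.910, 6.907 and 6.913 in the mulberry arrays, against 6.926, 6.910, 6.912 and 6.911 in the high-fat arrays (r 0.95, and 0.24 without it). Both were high on high-fat replicate 1, and their other arrays overlapped between diets.
Ahsp, the chaperone of alpha globin, had r 0.83 and 0.35 without that array, and Car1, another carbonic anhydrase of red cells, 0.80 and 0.70. Nprl3, a GATOR1 subunit gene whose introns hold alpha globin enhancers, had 0.99 and 0.22, and Trak2, an adaptor for mitochondrial transport, 0.94 and 0.19. Ube2h, a ubiquitin-conjugating enzyme, had 0.96 and 0.76, and the transcription factor gene Foxo3 0.81 and 0.95. The others were Uros (0.93), Slc6a9 (0.91), Rhag (0.90), Prdx2 (0.72) and Nfe2 (0.71).

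Relatives of the members were read in the same way. Of 28 other karyopherin and Ran pathway genes, 1 (3.57%) had an r of 0.7 or more, against 2.26% of all genes. High-fat replicate 1 was the highest array in 6 (21.4%), against 10.5% of all genes. The nuclear export receptor gene Xpo1 had r 0.26. Of 48 genes of the members' own families (other tetraspanins, TRIM, F-box, makorin, TMCC and carbonic anhydrase genes), 1 (2.08%) reached 0.7 and 6 (12.5%) were highest on that array. That one was Tspan8, a tetraspanin, with r 0.95 and 0.86 without high-fat replicate 1. Of 12 histone and chromatin condensation genes, 1 reached 0.7, the linker histone gene H1f2 (r 0.75, and 0.30 without that array), and 3 were highest on it. limma called no gene of these 3 lists between the diets, with 0, 1 and 1 genes at an unadjusted p under 0.05 in the order given, and differences between lists were not tested.

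**Figure D5:**
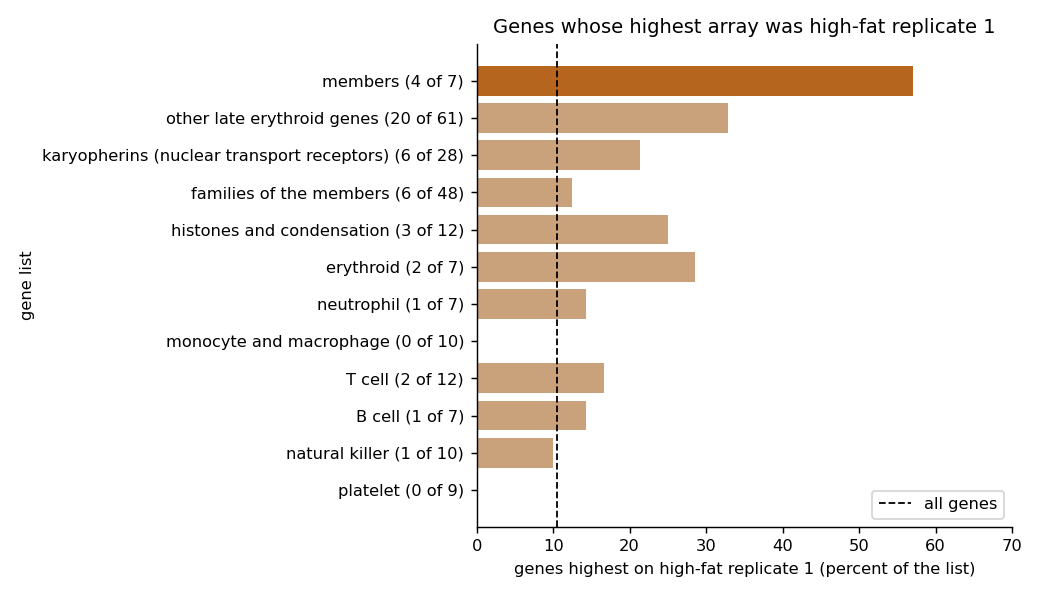
Share of each list's measured genes (percent, horizontal axis, 1 probe set per gene) whose highest of the 8 arrays was high-fat replicate 1, for the members, 4 lists of related genes and 7 lists of blood cell markers. The erythroid markers are also in the list of other late erythroid genes. The bars for the members (57.1%) and the other late erythroid genes (32.8%) are the longest. The members' bar partly restates their choice, since Xpo7 and Tmcc2 were chosen for a spread that lies nearly all on high-fat replicate 1. The dashed line marks all genes (10.5%), and no bar is drawn for monocyte and platelet markers, where the count is 0.

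Markers of blood cell types were read beside these values. Between 7 and 12 genes of each of the 7 lists were measured, which means only that they had a probe set. No deposited value of any probe set was below 5.17, so the values do not show which markers were present in the blood. Whether each marker was detected was not tested. Of 10 erythroid markers, 7 were measured. All 10 are also in the list of other late erythroid genes, so they are no separate reading. Their mean in SD units ran from -0.67 to 0.30 over the mulberry arrays and from -0.39 to 0.98 over the high-fat arrays, with high-fat replicate 1 at 0.98. Their summed level ran from 76.233 to 76.240 in the mulberry arrays and from 76.236 to 76.247 in the high-fat arrays (log2 values added over 7 probe sets). High-fat replicate 1 was highest in 2 of the 7, Ahsp (2.03 SD units) and Rhag (2.19). On that array Klf1 stood at 0.94, Alas2, the first enzyme of erythroid heme synthesis, at 0.44, Slc4a1 at 0.15 and Epb42 at -0.12.
On the same array the lists of neutrophils (0.42), monocytes (0.10), T cells (-0.31), natural killer cells (0.11) and platelets (0.004) lay between -0.31 and 0.42, and the B cell list stood at 0.87, below high-fat replicate 2 at 1.42. The summed level of the 7 measured of 10 B cell markers ran from 56.9395 to 56.9436 in the mulberry arrays and from 56.9404 to 56.9472 in the high-fat arrays. The part of any cell type in the member values was not tested.

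The genes most like the Xpo7-Tmcc2 profile were named among 136 non-member genes with an SD of 0.001 or more, by Pearson's r over the 8 arrays. Highest were Nprl3 (0.99), Ifit1 (0.98), Kel (0.98), Gypc (0.95), Tspan8 (0.95), Trak2 (0.94), Cd36 (0.93), Supt4h1 (0.93), Cir1 (0.92), Ahsp (0.83), Slc43a1 (0.81) and Car1 (0.80). Picked by r to a profile that is high on high-fat replicate 1, all 12 were by that choice highest on this array. Without it, 4 of them still had an r of 0.7 or more, Cir1 (0.86), Tspan8 (0.86), Slc43a1 (0.77) and Kel (0.71), and Ifit1 had the lowest, at 0.08. Lowest over 8 arrays were Tom1l1 (-0.76), Lyve1 (-0.51), Snx10 (-0.51), Il1r2 (-0.44), Klrb1a (-0.42) and Klkb1 (-0.42). With high-fat replicate 1 left out, Tom1l1 and Lyve1 turned to 0.82 and 0.86.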

How the data were processed

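Whole blood RNA of 8 samples was hybridized to an Affymetrix rat expression array. Per the labels' protocols, RNA was isolated with TRIzol LS, purified on an RNeasy column, and labelled from 200 ng with a 3' IVT Express kit. The authors deposited 1 table of probe set values, read here as log2 from their range, 5.17 to 15.26. How they were summarised and normalized is not given in the sources used here, and the spread between arrays was compressed (99.4% of probe sets had an SD under 0.001). Signal over background was not used, so the number of arrays limits the precision.

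Of 31099 probe sets, 57 controls were left out and 31042 tested. Genes were named from the platform annotation, checked by gene number against RefSeq (20758 of 20826 probe sets naming 1 gene matched). Another 436 named several genes and 9780 none. Diets were compared with limma 3.58.1 in R 4.3.3 (lmFit, eBayes, no trend, two-sided, no covariate) and Benjamini-Hochberg adjustment over all probe sets, threshold 0.05. Correlations, list counts and figures came from Python 3.11.15, and the fit was tested on simulated data. Lists used the probe set of highest mean per gene. Named were all members, the 12 genes of highest and 6 of lowest r to the Xpo7-Tmcc2 profile among genes with an SD of 0.001 or more, and up to 6 genes of widest spread per list, and others were chosen after their values were seen. Members and lists were chosen with earlier results of these data known. No label says that replicate numbers pair the arrays, and the fit did not pair them. Same-numbered arrays had correlations of deviations of -0.05, -0.05, 0.25 and 0.16, and differently numbered arrays of the 2 diets from -0.199 to 0.147. These values do not settle whether the numbers pair arrays. Alternatives were quantile normalization, median centring, brighter probe sets only, limma with trend and robust, a replicate block, rank correlation, a higher r threshold and leaving out each array. Leaving high-fat replicate 1 out of the pair, list and like-pattern values, and the shares over all pairs of probe sets, were added after the data were seen.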

Additional observations from a re-analysis of the deposited data

Results flagged for a closer look

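Samples far from the other 3 of their diet were sought by Dixon's ratio, the gap of the farthest array to its nearest neighbour over the group's range, above its tabulated critical value. Of the 15 member probe sets, 2 had such an array in the mulberry group, against 5.12% of all probe sets, and 5 in the high-fat group, against 4.8%. Chance gives such a result in about 1 in 20 groups. High-fat replicate 1 was far and high in Xpo7 1371516_at (0.995), Xpo7 1397312_at (0.90) and Tmcc2 1374160_at (0.878). Xpo7 and Tmcc2 were chosen for a spread that lies nearly all on that array, so these ratios restate the choice and are no evidence about the genes. The same array was far and high in 6 of the genes of like pattern, which were picked for their r to a profile that is high on that array, so that their ratios too follow from the choice: Nprl3 (0.955), Ifit1 (0.955), Gypc (0.905), Cd36 (0.911), Trak2 (0.869) and Cir1 (0.858).

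High-fat replicate 4 was far and low in Mkrn1 1373496_at (0.8294) and Mkrn1 1379325_at (0.90), and far and high in Klkb1 (0.882). In the mulberry group, replicate 4 was far and high in Hemgn (0.94), and replicate 1 was far and high in Tspan33 1395610_at (0.911) and Trak2 (0.84). The list of the members' families was low on mulberry replicate 1 (0.944), and the neutrophil list was low on high-fat replicate 2 (0.908).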

How the results depend on the processing

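No member probe set was called under any of the 13 alternatives to the limma fit, and over all probe sets quantile normalization gave 12 calls (adjusted p as low as 4.29e-15, members from 0.84) and the other 12 gave 0. The limma p values moved with the scaling. After median centring 5 of the 15 member probe sets had an unadjusted p under 0.05, against 2492 of all 31042. The lowest adjusted p was then 0.1617, for members and for all. With quantile normalization it was 0 of 15, against 534 of all. The count of other-member probe sets with an r of 0.7 or more to the profile, 3, was 1 without the 2 farthest arrays, 1 at a threshold of 0.9, 2 with quantile normalization, and 1 to 3 with each array left out (1 without high-fat replicate 1). Differences between diets turned in sign after median centring for Xpo7 1397747_at (0.15) and Mkrn1 1379325_at (1.00), and with 1 array left out they ran from -1.14 to 0.0582 for Xpo7 1397747_at, -0.89 to 0.67 for Tmcc2, -0.29 to 0.73 for Tspan33 1395610_at, -1.14 to 0.41 for Mkrn1 1373070_at and -1.20 to 0.26 for Mkrn1 1379325_at. The r of Xpo7 1397312_at ran from -0.44 to 0.99. Quantile normalization left 6 member probe sets (Hemgn, Tspan33 1396099_at and all 4 of Mkrn1) with a difference of 0, and gave 8 of 61 late erythroid genes an r of 0.7 or more, against 9 after median centring. It put high-fat replicate 1 highest in 6 of the 15 member probe sets, and median centring in 7. The cause of these shifts was not tested.

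With the replicate number as a block, limma called 0 probe sets, members included. Once diet and replicate-number means were removed, 6 other-member probe sets had an r of 0.7 or more. Same-numbered arrays then mirror each other, so such an r rests on 4 differences. The share of all probe sets reaching it in this setting is not given here, so the 6 has no background to be read against. No label says that the numbers pair arrays. Of the 4 same-numbered pairs, 2 correlated below 0, and 2 (0.25 and 0.16) above every differently numbered pair, so pairing was not settled.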
